A study of Mus musculus with 12 samples.

Results

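Somatic gonadal cells (SCs) are the cells of the embryonic gonad that are not germ cells, and the data described here are the mito-piRNAs of 6 SC small-RNA libraries out of 12 libraries in the series. The 6 were chosen by their labels alone: 1 library from female (F) and 1 from male (M) embryos at each of E11.5, E12.5 and E13.5 (embryonic days, counted post coitum). The other 6 libraries came from the primordial germ cells (PGCs) of the same kinds of gonads, and are used only for comparison. All groups were CD1 mice, and the labels name no treatment and no engineered allele for any of them. After the mesonephros had been removed, the gonads were dissociated and the PGCs were held back on a magnetic column by CD15, a surface antigen of PGCs, so the SC libraries hold the fraction that was not retained. Each library was made from the pooled gonads of several litters. The labels put the purity of the somatic fraction above 90%, and the methods of the study set a stricter limit; the deposited counts hold only small RNAs matched to mitochondrial DNA (mtDNA), so no cell type marker could be looked up in them. The pair of libraries of a day differ in sex and are not replicates of a condition, so every mean ± SD given here (n = 2) includes whatever differs between the sexes.

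A piRNA is a small RNA bound by a PIWI protein, a class best known for silencing transposons in germ cells, and a mito-piRNA is here a sequence that matches both the mtDNA and a catalogue of PIWI-bound mouse piRNAs. Mammalian mtDNA is transcribed from both strands into long precursors. The tRNAs lie between the ribosomal RNA (rRNA) and protein genes in those precursors, and cutting at the tRNA ends releases the neighbouring RNAs. The D-loop is the control region, which holds the origin of heavy-strand replication and the promoters. During the days sampled the supporting cell precursors, a part of the somatic cells, turn towards the Sertoli cell fate under Sry in XY gonads and towards the pregranulosa fate in XX gonads.

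The sequences of SCs fell into families, sets of sequences that share a first (5′) base and differ in where they end. The 4 families with the most reads, and the family at the start of 12S rRNA, are shown because the day comparisons turn on them. Each line gives the longest exact member found in SCs, 5′ to 3′ with T for U, and capitals mark the part that lies beyond the shortest member.
tRNA-SerGCT, chrM:11613-11645, forward: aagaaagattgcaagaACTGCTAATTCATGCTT
16S rRNA, chrM:1094-1128, forward: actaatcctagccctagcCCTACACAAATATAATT
D-loop, chrM:16159-16188, reverse: gaattgatcaggacatAGGGTTTGATAGTT
tRNA-SerTGA, chrM:6913-6938, reverse: gagaaagacatataggATATGAGATT
12S rRNA, chrM:70-99, forward: aaaggtttggtcctggCCTTATAATTAATT
Coordinates are those of GRCm39. The tRNA-SerGCT family (27 sequences of 16 to 33 nt in SCs) begins at the first base of mt-Ts2, whose gene spans chrM:11613-11671. The 16S family (21 sequences of 18 to 35 nt) begins at the first base of mt-Rnr2, chrM:1094-2675, and the 12S family (8 sequences) at the first base of mt-Rnr1, chrM:70-1024. The tRNA-SerTGA family (8 sequences) begins at the first base of mt-Ts1, which is encoded on the reverse strand at chrM:6870-6938. The D-loop family (12 sequences of 16 to 30 nt) lies inside the region taken as the D-loop, chrM:15423-16299, and its sequences read on the reverse strand, opposite to 12S and 16S rRNA.

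Between 18750 and 59545 mito-piRNA reads were deposited for an SC library, and levels are given as reads per 1000000 reads of the library total after the authors' abundance filter (rpm). A sequence under 10 CPM was dropped by the authors in each library separately. In SCs the lowest count listed was 66 to 105 reads, or 14.6 to 15.8 rpm, so an unlisted sequence is one below about that level and not one shown to be absent. A pair of SC libraries stood apart. The E13.5 M library carried a last base that does not match the mtDNA in 10.01% of its reads, against 0.767% to 4.67% in the other 5 SC libraries, and in the E11.5 M library 71.9% of reads came from the rRNA genes, against 23.4% to 38.9% in the other 5.

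The total level of mito-piRNAs in SCs was highest at E13.5 in both sexes. At E11.5 it was 5023 rpm in F and 5762 rpm in M, at E12.5 3163 and 5009 rpm, and at E13.5 8235 and 13129 rpm. Both E13.5 libraries lay above the other 4 and both E12.5 libraries below the other 4, the E12.5 M library by a narrow margin. From E12.5 to E13.5 the level was 2.60 times as high in F and 2.62 times in M. From E11.5 to E12.5 the ratio was 0.630 in F and 0.869 in M. The day means were 5392 ± 523, 4086 ± 1306 and 10682 ± 3461 rpm (SD, n = 2). The counting error behind these totals is small: at E13.5 the 95% Wilson interval of the share of all reads was 0.817% to 0.830% in F and 1.302% to 1.323% in M (counting error only, since reads without molecular identifiers are not independent molecules). An exact permutation test of F over the 15 distinct allocations of the 6 libraries to the days gave p = 0.0667, the smallest p this design allows, and an adjusted p of 0.600 over 18 measures, so the day difference could not pass a threshold of 0.05 in this test. Without the E13.5 M library the log2 difference between E13.5 and E12.5 was 1.05 in place of 1.39. The level is a share of the library total, so it also depends on the other small RNAs of a library. In bulk libraries, more cells of a type, more RNA per cell and less of the other small RNAs cannot be told apart.

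**Figure D1:**
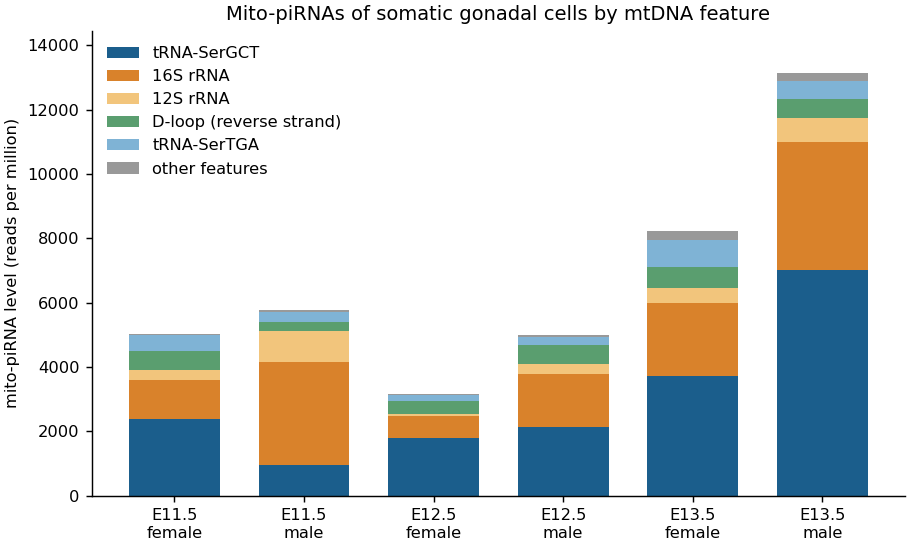
Stacked bars of mito-piRNA level (rpm, linear axis from 0) in the 6 SC libraries, by day and sex, with the 5 leading mtDNA features in colours and all other features in grey. The E13.5 bars reach 8235 (F) and 13129 (M), above the other 4, and the E11.5 M bar is mostly 16S and 12S rRNA.

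tRNA-SerGCT, the mitochondrial tRNA that reads serine AGY codons and lacks the D arm, was the largest single source in 5 of the 6 libraries. It stood at 2385 rpm in F and 961 rpm in M at E11.5, at 1782 and 2130 rpm at E12.5, and at 3733 and 7028 rpm at E13.5. Both E13.5 libraries were above the other 4, and the E11.5 M library was the lowest. In the M libraries tRNA-SerGCT made up 60.3% of the difference in total between E12.5 and E13.5, and in the F libraries 38.5%. The edgeR log2 fold change of E13.5 against E12.5 was 1.45 (SE 0.89, adjusted p = 0.234) and that of E13.5 against E11.5 was 1.65 (SE 0.91, adjusted p = 0.305), neither past the threshold. Under DESeq2's own size factors the first of these was -0.03. The second ranged from 0.70 to 2.63 over the settings tried, and the E13.5 level was 1.56 times that of E11.5 in F and 7.32 times in M.

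16S rRNA (mt-Rnr2), the RNA of the large subunit of the mitochondrial ribosome, was the second source. Its level was 1209 rpm in F and 3204 rpm in M at E11.5, 689 and 1643 rpm at E12.5, and 2270 and 3965 rpm at E13.5. In both sexes E12.5 was the lowest day and E13.5 the highest, but the days overlapped because the M library was above the F library on every day. The log2 fold change of E13.5 against E12.5 was 1.48 (SE 0.73, edgeR adjusted p = 0.174), and -0.02 under DESeq2. Reads from the first base of the gene were the largest part of it: 993 and 2548 rpm at E11.5, 670 and 1312 rpm at E12.5, and 1538 and 3485 rpm at E13.5 (F and M). A set of 8 sequences that end on the last base of the gene had 133 and 429 rpm at E11.5, 19.1 and 222 rpm at E12.5, and 290 and 336 rpm at E13.5. The remaining 24 sequences, of which 22 lie inside the gene and 2 run past its last base into tRNA-LeuTAA, had 83.0 and 226 rpm at E11.5, were unlisted in F and at 109 rpm in M at E12.5, and had 441 and 145 rpm at E13.5. All parts were thus lowest in the E12.5 F library, which listed 1 of the 8 gene-end sequences and none of the remaining ones.

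12S rRNA (mt-Rnr1), the RNA of the small ribosomal subunit, had the widest ratio between its highest and its lowest library among the 5 leading features. It stood at 307 rpm in F and 941 rpm in M at E11.5, at 49.6 and 305 rpm at E12.5, and at 445 and 740 rpm at E13.5. Both E12.5 libraries were the lowest, the M library by a narrow margin from the E11.5 F library. The log2 fold change of E12.5 against E11.5 was -1.98 (SE 0.87, edgeR adjusted p = 0.669) and that of E13.5 against E12.5 was 2.08 (SE 0.89, adjusted p = 0.174). In the E12.5 F library none of the 8 sequences from the first base of 12S was listed, while the same family stood at 255 and 748 rpm at E11.5, 197 rpm in the E12.5 M library, and 316 and 601 rpm at E13.5. The 12S reads of the E12.5 F library all came from a single 16-nt sequence, the only 12S sequence listed in all 6 libraries. It is shown, with its mismatched base in capitals, because the 12S value of that library is its value (chosen after its values were seen).
12S rRNA, chrM:978-993, forward: aAaagtcgtaacaagg
It differs from the mtDNA by T2A (the mtDNA base first, counted from the 5′ end), and it matches the nuclear chromosomes exactly at 1 place. The E12.5 F library thus listed no 12S sequence that matches the mtDNA exactly. Whether the T2A sequence comes from 12S rRNA was not tested. Its level was 33.9 and 109 rpm at E11.5, 49.6 and 85.1 rpm at E12.5, and 52.7 and 26.0 rpm at E13.5. When 12S was reduced to it, the log2 fold change of E13.5 against E12.5 became -0.72 and that of E12.5 against E11.5 became -0.064. This reduction left out the first-base family, which the E12.5 F library did not list. Over the settings tried the fold change of E12.5 against E11.5 ranged from -3.00, without the E12.5 M library, to -0.064.

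tRNA-SerTGA, the other mitochondrial serine tRNA, which reads UCN codons, was at 525 rpm in F and 303 rpm in M at E11.5, at 203 and 254 rpm at E12.5, and at 844 and 568 rpm at E13.5. The 3 days did not overlap: both E12.5 libraries were the lowest and both E13.5 libraries the highest. The log2 fold change of E13.5 against E12.5 was 1.68 (SE 1.15, edgeR adjusted p = 0.263), and ranged from 0.14 to 2.18 over the settings tried. Of the 5 features listed in all 6 libraries, 2 had both E13.5 libraries above the other 4 (40% of those features: tRNA-SerGCT and tRNA-SerTGA), and 2 had both E12.5 libraries below the other 4 (40%: 12S and tRNA-SerTGA).

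The D-loop family had the narrowest ratio between its highest and its lowest library among the 5. All its reads came from the reverse strand, and it stood at 580 rpm in F and 289 rpm in M at E11.5, at 414 and 610 rpm at E12.5, and at 662 and 596 rpm at E13.5. The days overlapped, and apart from the E11.5 M library all values lay between 414 and 662 rpm. The log2 fold change of E13.5 against E12.5 was 0.32 (SE 1.02, edgeR adjusted p = 0.838), with the sign reversed under the file totals, TMM and DESeq2 scalings, at -1.05, -0.96 and -1.19. Its share of SC reads ran from 4.54% in the E13.5 M library to 13.1% in the E12.5 F library.

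**Figure D2:**
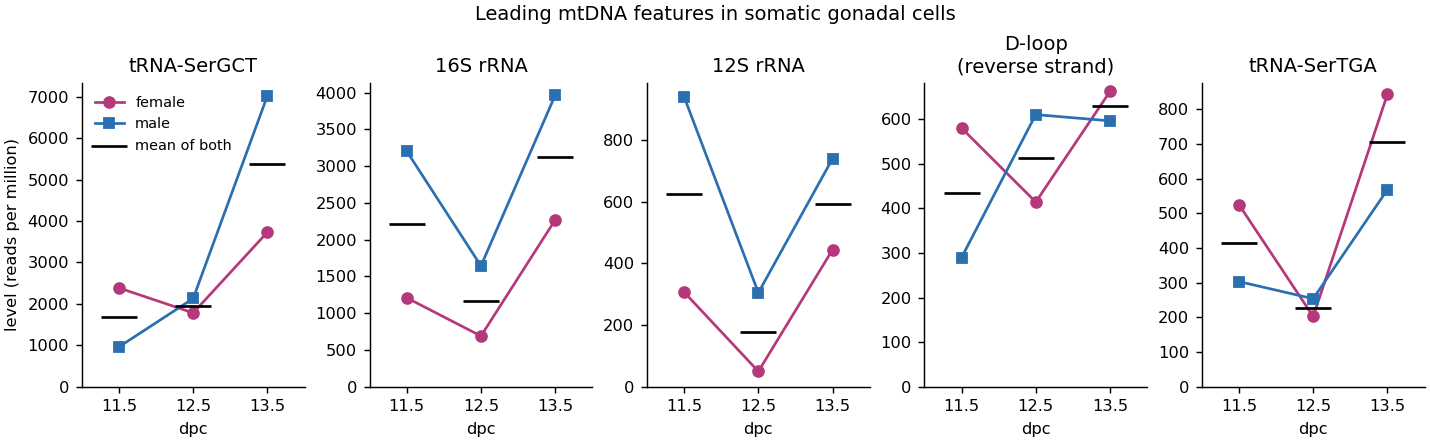
Level (rpm, linear axes from 0, different for each panel) of the 5 leading mtDNA features against day, with circles for the F library, squares for the M library and a black bar for their mean. In 16S and 12S rRNA the E12.5 values are lowest in both sexes, in tRNA-SerGCT and tRNA-SerTGA both E13.5 values are above all others, and the D-loop panel shows overlapping days.

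Across all features, families and sequences the fit over the 12 libraries, with cell type and day as groups and sex as a term, called nothing between the SC days. Of 11 features tested (all 11 listed in SCs) edgeR's quasi-likelihood test called 0 (0%) at an adjusted p under 0.05 in the test over all 3 days and in each pair of days. It also called 0 of 41 families (0%) and 0 of 97 sequences (0%), of which 40 families and 94 sequences were listed in SCs. Unadjusted p was under 0.05 for 2 features, 2 families and 1 sequence over all 3 days. DESeq2 called 1 feature over all 3 days (tRNA-Pro reverse), and no family and no sequence. In a pair of days, unadjusted p was under 0.05 for at most 2 features, 3 families and 2 sequences, and DESeq2 called at most 2 features, 4 families and 9 sequences, each of them unlisted in some SC libraries. Both features with an unadjusted p under 0.05 (tRNA-Ala reverse and tRNA-Pro reverse) were unlisted in SCs before E13.5, so their fold changes have no usable size. The remaining 47 SC sequences, 17 families and 6 features were listed in fewer than 3 of the 12 libraries and were not tested. The fit shares its estimate of the spread among the units of a level, many of them entered as 0 where unlisted. For the D-loop, with the same reads as feature and as family, the SE of E13.5 against E12.5 was 1.02 by feature and 1.88 by family. A count of 0 calls therefore does not show that no unit changed.

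With the 5 features listed in all 6 SC libraries fitted on those libraries alone, a choice made after the data had been seen, edgeR called 4 of 5 features (80%) between E13.5 and E12.5 and 1 of 5 (20%) between E12.5 and E11.5. The calls of E13.5 against E12.5 were 12S rRNA (log2 fold change 2.21, SE 0.61, adjusted p = 0.0226), 16S rRNA (1.505, SE 0.58), tRNA-SerGCT (1.46, SE 0.58) and tRNA-SerTGA (1.58, SE 0.58), the last 3 each with an adjusted p of 0.0374. The 12S value rests on an E12.5 F library in which only the 16-nt T2A sequence was listed. In the same fit by family, that sequence's family had a log2 fold change of -0.62 (SE 0.74, adjusted p = 0.508). The first-base 12S family, unlisted in the E12.5 F library, was not in that fit. Its log2 fold change over the 12 libraries was 2.97 (SE 2.92, edgeR adjusted p = 0.556). The T2A sequence alone thus does not give the direction of 12S, and the call depends on unlisted sequences. The D-loop was not called (0.27, SE 0.57, adjusted p = 0.641). All 5 SEs of this contrast lay between 0.57 and 0.61, since the fit shares its estimate of the spread among the features. The 4 calls also come from the same libraries and library totals, so they are not independent of each other. Between E12.5 and E11.5 only 12S was called (-2.04, SE 0.59, adjusted p = 0.0311), which rests on the same E12.5 F library: the family of the T2A sequence had a log2 fold change of -0.016 (SE 0.72, adjusted p = 0.983) in that contrast. Between E13.5 and E11.5, and over all 3 days, edgeR called 0 of 5 (0%), with an unadjusted p under 0.05 for tRNA-SerGCT in the former and for 12S and tRNA-SerGCT in the latter. The same fit called 0 of 6 families (0%) and 0 of 33 sequences (0%) in every contrast, with an unadjusted p under 0.05 for at most 2 families and 6 sequences; DESeq2 was not run on this set. These folds are relative to the library total, and the calls were not refitted under another scaling. In the fit over 12 libraries, scaling to the mito-piRNA reads of a library in place of the library total moved the median of the 5 log2 fold changes of E13.5 against E12.5 by -1.37.

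The number of sequences listed followed the total. It was 61 in F and 72 in M at E11.5, 43 and 59 at E12.5, and 102 and 103 at E13.5 (exact permutation p = 0.0667, the smallest possible, adjusted p = 0.600). Of the 204 sequences of the series, 141 were listed in at least 1 SC library, 33 in all 6 and 50 in a single SC library. Both libraries of a day shared 44 of the 89 sequences listed at E11.5, 39 of 63 at E12.5 and 73 of 132 at E13.5. None of the 63 was listed at E12.5 and on no other day, 9 of the 89 were so at E11.5, and 49 of the 132 at E13.5. Of these 49, 8 were listed in both E13.5 libraries, 21 in F only and 20 in M only, and 15 were also listed in a PGC library. They came from 16 features, led by 16S rRNA with 17 sequences and tRNA-SerGCT with 9. Their levels were low, with a median of 19.5 rpm where listed against a detection level near 15 rpm, so a sequence could enter the list through a small increase.

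The 4 sequences with the most reads among those listed in both E13.5 libraries and in no other SC library are shown, with a mismatched base in capitals.
tRNA-SerGCT, chrM:11613-11634, forward: aagaaagattgcaagaactgcG
tRNA-Pro antisense, chrM:15356-15371, forward: tcaagaagaaggagct
tRNA-SerGCT, chrM:11613-11641, forward: aagaaagattgcaagaactgctaattcat
16S rRNA, chrM:1236-1257, forward: aattaaaagtaagaacaagcaa
The first, which carries T22G, stood at 19.8 rpm in F and 230 rpm in M. The tRNA-Pro sequence stood at 17.1 and 77.0 rpm, the 29-nt tRNA-SerGCT sequence at 16.5 and 26.2 rpm, and the 16S sequence at 27.7 and 16.1 rpm. Both tRNA-SerGCT sequences were listed in none of the 6 PGC libraries, the tRNA-Pro sequence in 1 and the 16S sequence in 2.

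The 33 sequences listed in all 6 SC libraries have a value in each, but the detection level decided which sequences they are. Any sequence under that level in 1 library was left out. The 33 held 70.7% (E11.5 M) to 93.2% (E12.5 F) of the reads of a library. Their summed level was 4129 and 4072 rpm at E11.5, 2947 and 4276 rpm at E12.5, and 6132 and 10102 rpm at E13.5 (F and M). Here the E12.5 M library was above both E11.5 libraries, and E12.5 was the lowest day in F alone. The set kept 70.7% of the reads of the E11.5 M library but 85.4% of those of the E12.5 M library. It therefore cannot decide whether M had a low point at E12.5. From E12.5 to E13.5, 32 of 33 were higher in F and 25 of 33 in M. From E11.5 to E12.5, 4 of 33 were higher in F and 18 of 33 in M. Both E13.5 libraries were above the other 4 for 9 of 33 (27.3%), of which 8 belong to the tRNA-SerGCT family, that holds 12 of the 33, and 1 to the 16S family, that holds 10. Both E12.5 libraries were below the other 4 for 4 of 33 (12.1%). None of the 6 D-loop sequences and none of the 3 tRNA-SerTGA sequences had both E13.5 libraries on top.

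The most abundant single sequence of SCs was a 22-nt member of the tRNA-SerGCT family. Of the 6 sequences with the highest mean, 4 are from that family and 2 from the start of 16S.
tRNA-SerGCT, 21 nt, chrM:11613-11633: aagaaagattgcaagaactgc
tRNA-SerGCT, 22 nt, chrM:11613-11634: aagaaagattgcaagaactgct
tRNA-SerGCT, 25 nt, chrM:11613-11637: aagaaagattgcaagaactgctaat
tRNA-SerGCT, 26 nt, chrM:11613-11638: aagaaagattgcaagaactgctaatt
16S rRNA, 23 nt, chrM:1094-1116: actaatcctagccctagccctac
16S rRNA, 34 nt, chrM:1094-1127: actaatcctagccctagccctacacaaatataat
The 22-nt sequence stood at 443 rpm in F and 153 rpm in M at E11.5, at 358 and 568 rpm at E12.5, and at 952 and 1991 rpm at E13.5. The 26-nt sequence, which has the same first 22 bases, stood at 419 and 156 rpm at E11.5, at 316 and 277 rpm at E12.5, and at 272 and 683 rpm at E13.5. The 22-nt sequence was thus highest at E13.5 in both sexes, while in F the 26-nt sequence was lowest at E13.5. The 21-nt sequence stood at 121 and 51.7 rpm, then 73.7 and 127 rpm, then 301 and 588 rpm, and the 25-nt sequence at 274 and 105 rpm, then 250 and 200 rpm, then 424 and 524 rpm, on the same days. Of the 16S pair, the 23-nt sequence stood at 248 and 588 rpm, then 202 and 339 rpm, then 333 and 695 rpm, and the 34-nt sequence at 132 and 414 rpm, then 47.1 and 153 rpm, then 176 and 662 rpm. Both were lowest at E12.5 in each sex, with the days overlapping across sexes. None of these sequences was called by edgeR.

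The shortest member of each leading family was listed in all 6 SC libraries. The 16-nt tRNA-SerGCT sequence stood at 105 and 67.0 rpm at E11.5, 135 and 212 rpm at E12.5, and 278 and 277 rpm at E13.5, and the 33-nt sequence at 16.9 to 33.7 rpm in the 5 libraries that listed it. The 18-nt 16S sequence stood at 50.7 and 245 rpm, then 22.1 and 127 rpm, then 138 and 197 rpm, and the 35-nt sequence at 91.2 and 271 rpm, then 38.3 and 117 rpm, then 147 and 405 rpm. The 16-nt D-loop sequence lay between 60.6 and 114 rpm in all 6 libraries, and the 30-nt one between 16.4 and 33.9 rpm in 5. The 16-nt tRNA-SerTGA sequence lay between 26.7 and 115 rpm, and the longest tRNA-SerTGA sequence, of 31 nt with a C29T mismatch, was listed only in the E13.5 M library, at 39.2 rpm.

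No measure of read length passed the test between days. Mean read length over all mito-piRNAs was between 23.1 and 23.9 nt in every SC library (exact permutation p = 0.733). In the tRNA-SerGCT family it was 23.8 nt in F and 23.7 nt in M at E11.5, 24.1 and 23.5 nt at E12.5, and 23.4 and 22.3 nt at E13.5 (exact permutation p = 0.333, adjusted p = 0.667). Reads of 22 nt made up 20.6% and 18.0% of that family at E11.5, 21.1% and 27.6% at E12.5, and 29.4% and 34.8% at E13.5, and reads of 26 nt 19.9% and 18.4%, then 19.5% and 13.1%, then 8.40% and 10.9%. Both E13.5 libraries thus had the highest 22-nt share and the lowest 26-nt share (a pair of lengths chosen after their values were seen, with no test). In the 16S family the mean length was 25.9 and 26.7 nt, then 24.7 and 25.7 nt, then 25.8 and 27.4 nt (exact permutation p = 0.333, adjusted p = 0.667). In the tRNA-SerTGA family it was 18.5 to 19.5 nt in 5 libraries and 21.5 nt in the E13.5 M library, in which 21-nt reads made up 53.5% of the family and 18-nt reads 19.2%. In the E13.5 F library those shares were 16.4% and 66.4%.

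**Figure D3:**
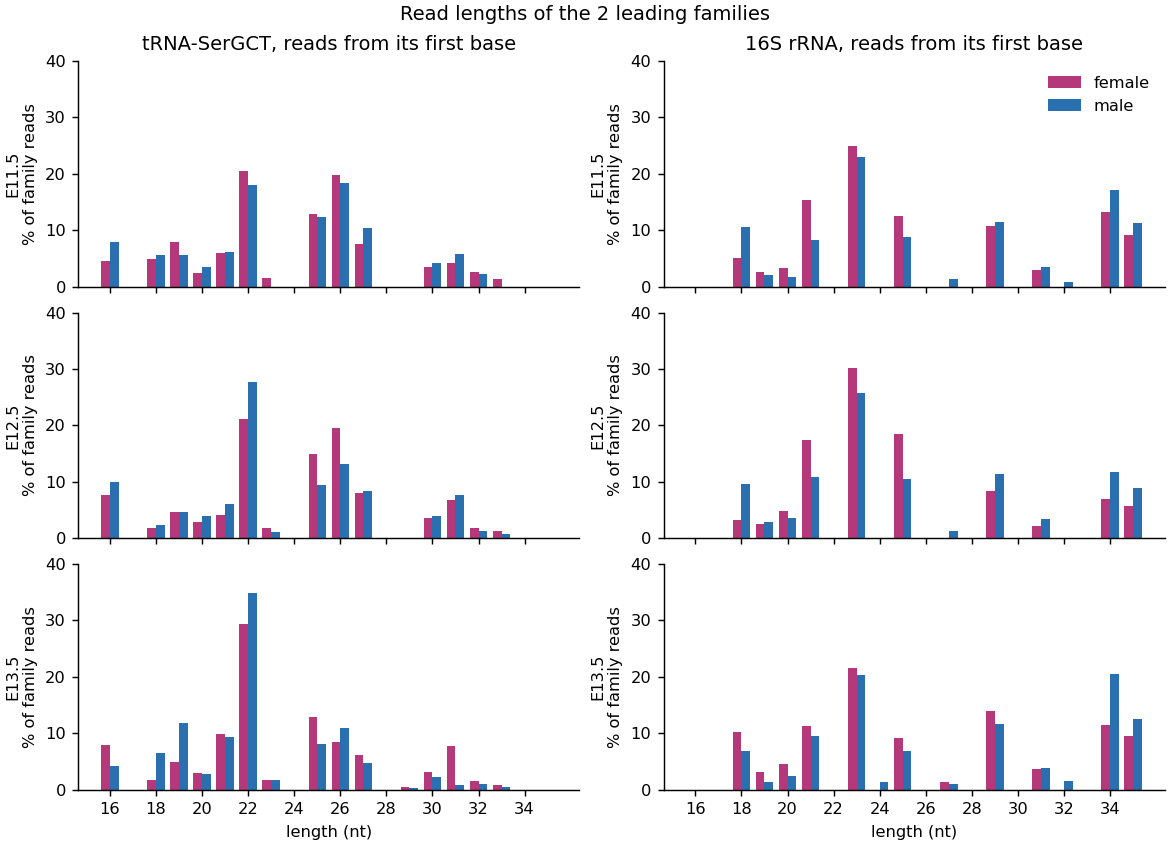
Share of family reads (percent, linear axis) at each read length (nt) in the tRNA-SerGCT family, left, and in the 16S rRNA family, right, with a row for each day and bars for the F and M library. In tRNA-SerGCT the 22-nt bars reach 29.4% (F) and 34.8% (M) at E13.5, while the 26-nt bars are lower than on the earlier days. In the 16S panels the highest bar is at 23 nt in every library but E13.5 M, where it is at 34 nt by a narrow margin (20.6% against 20.4%).

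Ends with a base that does not match the mtDNA were most frequent in the E13.5 M library. Over all SC mito-piRNAs such reads made up 4.67% in F and 2.26% in M at E11.5, 3.33% and 0.767% at E12.5, and 4.35% and 10.01% at E13.5 (exact permutation p = 0.333, adjusted p = 0.667). In the tRNA-SerGCT family the share was 7.20% in F and 0% in M at E11.5, 4.88% and 0.741% at E12.5, and 5.75% and 12.3% at E13.5, where the M library listed 11 such sequences. A last-base variant of the 22-nt sequence is shown beside the T22G form above, with the mismatched base in capitals (chosen after its values were seen).
tRNA-SerGCT, 22 nt, chrM:11613-11634, T22C: aagaaagattgcaagaactgcC
The T22C form stood at 37.7 rpm in F and was unlisted in M at E11.5, stood at 17.5 and 15.7 rpm at E12.5, and at 50.4 and 213 rpm at E13.5. Neither it nor the T22G form was listed in a PGC library. Whether such ends come from the RNA or from sequencing and trimming was not tested.

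The first base was A in 72.3% to 86.6% of SC reads, with no order of days (exact permutation p = 1.00). The last base was T in 49.6% to 57.5%, C in 25.6% to 37.8%, G in 9.997% to 13.9% and A in 2.66% to 6.14%. Reads whose sequence also matches a nuclear chromosome with up to 1 mismatch made up 79.6% in F and 65.2% in M at E11.5, 83.5% and 75.8% at E12.5, and 79.1% and 78.1% at E13.5 (exact permutation p = 0.8), and for those reads an origin from nuclear copies of mtDNA cannot be told apart from an origin in the mtDNA. The share from tRNA genes was 58.3% and 21.9%, then 63.5% and 48.9%, then 58.6% and 59.3% (p = 0.667, exact permutation). None of the 18 measures had an adjusted p under 0.600.

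A second tRNA-SerGCT family, which begins 2 bases inside the gene, was listed in SCs and in none of the PGC libraries (chosen after its values were seen). Its leading member is shown because it differs from the main family only by the lack of the first 2 bases.
tRNA-SerGCT, chrM:11615-11633: gaaagattgcaagaactgc
The family stood at 51.2 rpm in F and 94.0 rpm in M at E11.5, was unlisted in F and at 16.7 rpm in M at E12.5, and stood at 227 and 31.5 rpm at E13.5. It was listed in 5 of 6 SC libraries.

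The remaining features were listed at no more than 94.6 rpm in an SC library. Of the mtDNA gene list, reads of SCs lay, on either strand, in 12 of 22 tRNA genes, both rRNA genes, 2 of 13 protein-coding genes and the D-loop. tRNA-Gln (mt-Tq) was listed in 5 SC libraries at 14.6 to 56.8 rpm, unlisted only in the E11.5 M library. tRNA-Glu (mt-Te) was at 15.7 rpm in the E12.5 M library and 38.6 rpm in the E13.5 F library. tRNA-Asn, tRNA-Gly, tRNA-Phe and tRNA-Val were listed only in the E13.5 F library, at 19.4, 17.9, 19.8 and 39.0 rpm, and tRNA-His, tRNA-LeuTAA and COX1 only in the E13.5 M library, at 17.2, 19.2 and 23.4 rpm. ND3, a subunit of complex I, was at 64.7 rpm in the E11.5 M library and at 36.6 and 21.2 rpm in the E13.5 libraries. All 3 of its SC sequences start at chrM:9459, the base after the end of tRNA-Gly, and carry T3C. Each of them matches the nuclear chromosomes exactly at 1 place, and whether they come from the mtDNA was not tested.

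Antisense reads to tRNA-Ala and tRNA-Pro were listed in SCs at E13.5 only. Those of tRNA-Ala stood at 17.4 rpm in F and 41.0 rpm in M, and those of tRNA-Pro at 36.6 and 94.6 rpm. Both begin where a forward-strand tRNA gene ends: the tRNA-Pro reads at chrM:15356, the base after tRNA-Thr (chrM:15289-15355), and the tRNA-Ala reads at chrM:5017, the base after tRNA-Trp (chrM:4950-5016). A tRNA-Ala member and a longer tRNA-Pro member are shown because they carry this start (chosen after their values were seen).
tRNA-Ala antisense, chrM:5017-5033: ataaggactgtaagact
tRNA-Pro antisense, chrM:15356-15374: tcaagaagaaggagctact
In PGCs these features were not limited to E13.5: tRNA-Pro antisense reads were listed in 5 of 6 PGC libraries at 17.3 to 36.9 rpm and tRNA-Ala antisense reads in 3.

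Against PGCs, the day course of SC mito-piRNAs differed for no feature past the threshold. In the PGC libraries the total was 4683 rpm in F and 7875 rpm in M at E11.5, 2710 and 5057 rpm at E12.5, and 7201 and 7222 rpm at E13.5, so E12.5 was the lowest day in both cell types and both sexes. In edgeR, the interaction of cell type with day was called for 0 of 11 features (0%), 0 of 41 families (0%) and 0 of 97 sequences (0%), with an unadjusted p under 0.05 for 0 features, 0 families and 2 sequences over all 3 days. DESeq2 called none at any of these levels. For a pair of days edgeR also called 0, with an unadjusted p under 0.05 for at most 2 features, 1 family and 3 sequences. For tRNA-SerGCT, PGCs stood at 2017 and 1992 rpm at E11.5, 820 and 2271 rpm at E12.5, and 2191 and 1300 rpm at E13.5. The log2 change from E11.5 to E13.5 was larger in SCs than in PGCs by 1.84 (SE 1.26, edgeR adjusted p = 0.420). The D-loop stood at 634 and 214 rpm in PGCs at E11.5, 65.0 and 213 rpm at E12.5, and 45.5 and 140 rpm at E13.5. In rpm, the E13.5 library was thus above the E11.5 library of the same sex in SCs and below it in PGCs, with a difference in log2 change of 2.80 (SE 1.48, edgeR adjusted p = 0.362), which missed the threshold. The log2 fold change in SCs alone was 0.51, and -0.38, -0.43 and -0.20 under the file totals, TMM and DESeq2 scalings, which moved the median of the 5 leading features by -0.90, -0.95 and -0.73. It was -0.085 without the E11.5 M library of SCs. The difference between the cell types was 1.298 with unlisted sequences set to the lowest count. It was 1.51 without the E11.5 F library of PGCs and 2.07 without their E13.5 F library, in which 38.1% of reads end in A against 2.66% to 7.91% in the other 11 libraries.

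**Figure D4:**
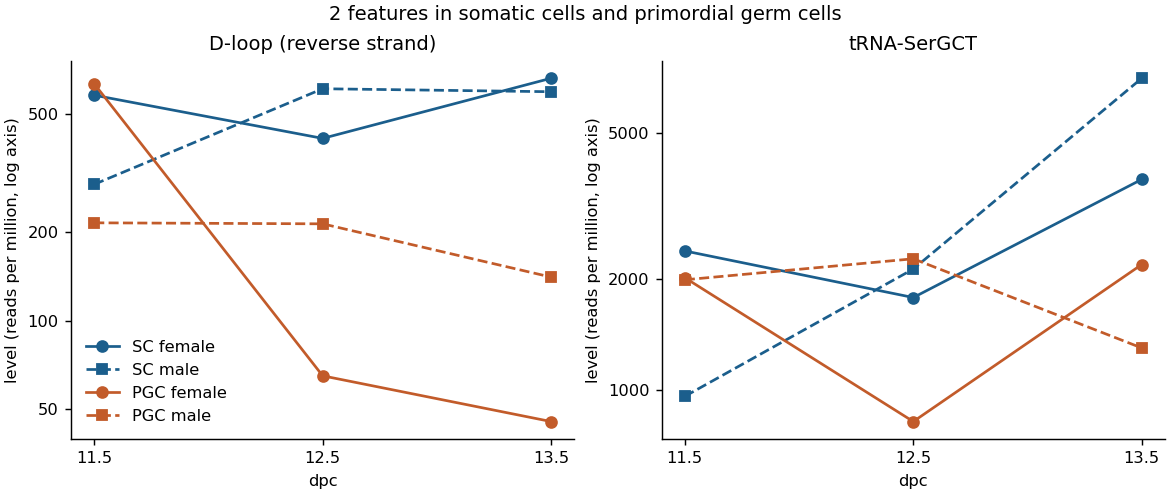
Level (rpm, log axes) of the reverse-strand D-loop reads, left, and of tRNA-SerGCT, right, against day in SCs (blue) and PGCs (orange), with circles and solid lines for F and squares and dashed lines for M, 1 library for each point. At E13.5 both SC points of each panel (662 and 596, 3733 and 7028) lie above both PGC points (45.5 and 140, 2191 and 1300).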

How the data were processed

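Small RNAs of SCs and PGCs from CD1 mouse embryonic gonads were sequenced as 12 libraries, 1 for each cell type, sex and day, from pooled gonads. Nothing shows the libraries of a day to be replicates, so p-values measure only the spread between these libraries. The edgeR fits share that spread among the units of a level. The authors trimmed the adapter with Trim Galore (an overlap of 1 base sufficed), checked quality with FastQC, merged identical reads, dropped what was under 10 CPM, aligned with Bowtie to mm39 and the mtDNA with up to 1 mismatch, and kept mtDNA matches that also match a piRNA catalogue. The deposited values are raw read counts for each unique sequence, not normalized. The adapter begins with A, so a terminal A of the RNA may be trimmed with it; its effect was not tested.

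Each sequence was placed on the GRCm39 mtDNA (16299 bp) and its GENCODE genes with up to 1 mismatch, and nuclear chromosomes were scanned the same way. Counts were expressed as rpm of the library totals after the authors' filter. An unlisted sequence entered the fits as 0. Counts summed by feature, by 5′ family and by sequence, where listed in at least 3 of 12 libraries, went into edgeR's quasi-likelihood test (cell type by day groups plus sex, library totals as library sizes, no dispersion trend, Benjamini-Hochberg adjustment, threshold 0.05). Single values for each library were tested with a two-sided exact permutation test of F over 15 allocations, adjusted over 18 measures. Alternatives were other library sizes, TMM, DESeq2, other filters, exact matches, a 25 rpm cut-off, unlisted sequences set to the lowest count, a set common to all SC libraries, SC libraries alone, and leaving out each library. Sequences named are the 6 with the highest mean in SCs, any 3 largest changes that edgeR called for each pair of days with the settings above (none; other settings and DESeq2 called some), the shortest and longest of the 4 leading families, and up to 4 listed in both libraries of a single day; every feature with SC reads is accounted for. Others are marked as chosen after their values were seen. The members, lists and tests were chosen with earlier results of these data known. The per-sequence fit was tested on simulated data whose dispersion was lower than that of these counts, so the test does not show what could be called here. Tools were edgeR 4.0.16 and DESeq2 1.42.0 under R 4.3.3, and numba 0.67.0, scipy 1.17.1, pandas 2.3.3 and numpy 2.4.6 under Python 3.11.15.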

Additional observations from a re-analysis of the deposited data

Results flagged for a closer look

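On the rpm scale, the reverse-strand D-loop reads were higher at E13.5 than at E11.5 in both sexes of SCs and lower in both sexes of PGCs. In SCs they went from 580 to 662 rpm (F) and from 289 to 596 rpm (M), and in PGCs from 634 to 45.5 rpm (F) and from 214 to 140 rpm (M). The difference in log2 change, SC minus PGC, was 2.80 (SE 1.48, unadjusted p = 0.103, edgeR adjusted p = 0.362), so it missed the threshold, and over 24 alternatives it lay between 1.298 and 3.81 with adjusted p from 0.123 to 0.759. The sign in SCs depended on the scaling: their log2 fold change of E13.5 against E11.5 was 0.51 (adjusted p = 0.700), but -0.38, -0.43 and -0.20 under file totals, TMM and DESeq2, scalings that moved the median of the 5 leading features by -0.90, -0.95 and -0.73 in that contrast. It was -0.085 without the E11.5 M library of SCs. The E13.5 F library of PGCs, in which 38.1% of reads end in A against 2.66% to 7.91% in the other 11 libraries, is part of the difference of 2.80; without that library the difference was 2.07 (SE 1.62, adjusted p = 0.464). Without the E11.5 F library of PGCs it was 1.51 (SE 1.57, adjusted p = 0.691). The lowest of the 24 values, 1.298, came with unlisted sequences set to the lowest count. In the E13.5 F library of PGCs the D-loop reads came from a sequence with 95 reads and another with 135, where the lowest listed count was 90. The detection level is thus part of the fall in PGCs. The part of the reads that end in A in the result was not tested further.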

How the results depend on the processing

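None of the alternatives could bring the total or the 17 other measures for each library past the threshold, since the exact permutation test used for them, with 15 allocations, allows no p under 0.05. The log2 difference of the total between E13.5 and E12.5 lay between 1.05 and 1.72 when a library was left out. The counts of calls moved from 0 under these alternatives. DESeq2 called 1 feature over all days, 1 between E12.5 and E11.5, 1 between E13.5 and E12.5 and 2 between E13.5 and E11.5, with 4, 3 and 1 families and 9, 9 and 2 sequences in the same order of pairs, every one of them unlisted in some libraries. Setting unlisted sequences to the lowest count called 2 sequences between E13.5 and E12.5. Another pair of alternatives was added after the data were seen: on the 6 SC libraries with units listed in all of them, 4 features were called between E13.5 and E12.5 and 1 between E12.5 and E11.5, and on the 12 libraries 1 sequence was called for the interaction. With a library left out, the feature calls ranged from 0 to 1 over all days, between E13.5 and E12.5, between E13.5 and E11.5 and for the interaction; the single call was tRNA-Pro reverse, made without the E13.5 F or M library of PGCs (for the interaction, without the F library only).

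Directions reversed as follows for log2 fold changes, none of them called before or after. For E13.5 against E11.5, file totals, TMM and DESeq2 gave -0.40, -0.39 and -0.24 for 16S, -0.86, -0.86 and -0.72 for 12S, and -0.38, -0.43 and -0.20 for the D-loop, and file totals and TMM gave -0.11 and -0.18 for tRNA-SerTGA. For E13.5 against E12.5 they gave -1.05, -0.96 and -1.19 for the D-loop, and DESeq2 gave -0.031 for tRNA-SerGCT and -0.016 for 16S. These scalings moved the median of all 5 log2 fold changes together, by -0.90, -0.95 and -0.73 for E13.5 against E11.5 and by -1.37, -1.28 and -1.50 for E13.5 against E12.5. 12S, E13.5 against E11.5, was -0.058 with unlisted sequences at the lowest count and -0.074 without the sex term (no replicate block), on 6 or on 12 libraries. With the common set, in which 12S is the T2A sequence alone, it was -0.79, and -0.72 for E13.5 against E12.5. With an SC or PGC library left out it ranged from -0.21 (without E13.5 F of SCs) to 0.38 for E13.5 against E11.5, with -0.13 without E11.5 F of SCs. In the same way E12.5 against E11.5 ranged from -0.48 to 1.21 for tRNA-SerGCT and from -0.44 to 1.03 for the D-loop, and E13.5 against E11.5 from -0.085 to 1.38 for the D-loop, with each low value from leaving out the E11.5 M library of SCs. The cause was not tested. The labels give no replicate numbers; the sex term, which links the libraries of a sex across days, was the only block of the fit, and dropping it (no replicate block) moved no count of calls from 0.

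The depth limits what unlisted sequences can show: under about 15 rpm, or 66 to 105 reads, absence and a low level cannot be told apart.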
